A study of Homo sapiens with 9 samples.

Results

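The genes described here belong to the unfolded protein response of the endoplasmic reticulum. They were chosen by gene symbol: every probe set that the annotation of the array assigns to XBP1, ERN1, HSPA5, HSP90B1, PDIA4, HERPUD1, DNAJB9, CALR, EDEM1 or SEL1L and to no other gene. Of these 10 genes, 5 had such a probe set, 1 each, of 7713 genes with a symbol of their own on the array: XBP1, ERN1, DNAJB9, PDIA4 and SEL1L. HSP90B1 shares its only probe set in the annotation with a microRNA gene and is therefore given no value, and HSPA5, HERPUD1, CALR and EDEM1 have no entry in the annotation used here, so their expression was not analysed. All 5 measured genes lay above the filter on dim probe sets, as did 5830 of all 8746 probe sets other than controls.

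The cells were LAN-5, a commercial line from human neuroblastoma, and received the calcium-binding protein S100B or none. There were 3 arrays in each of 3 groups: cells in culture medium alone (untreated), cells with 0.5 nM S100B and cells with 5 µM S100B. All groups were first grown in complete DMEM, and the submitters call the 3 arrays of each group biological replicates. How long S100B was present, and how it was made, is not stated in the labels. Values are the authors' GCRMA values on a log2 scale, 1 per probe set and array, and 5830 probe sets were tested. Of 14 measured noradrenergic neuroblastoma markers 13 lay above the filter on dim probe sets. So did 5 of 9 plasma and B cell markers, 6 of 10 glial and mesenchymal markers, and 5830 of all 8746 probe sets other than controls. None of these marker genes passed the test in any comparison. Array-to-array correlations were 0.993 to 0.997 within groups and 0.994 to 0.997 between them.

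The unfolded protein response matches the folding capacity of the endoplasmic reticulum to the load of new secretory and membrane protein. Its sensors sit in the membrane of that compartment: IRE1, encoded by ERN1, splices the XBP1 mRNA so that it encodes an active transcription factor, ATF6 is cut free by proteolysis, and PERK slows translation and favours ATF4. XBP1 and ATF6 raise chaperones, protein disulfide isomerases and the machinery that retrotranslocates misfolded proteins for degradation. Secretory and neuroendocrine cells rely on this system for their output of secreted protein.

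The promoters of these genes are shown first, because the transcription factors of the response are known to act through a short element in them. The endoplasmic reticulum stress element, ERSE, reads CCAAT, then 9 bases of any kind, then CCACG; NF-Y binds the first block and ATF6 or XBP1 the last. Windows of 250 bases before to 50 bases after each annotated start, from RefSeq on GRCh38.p14, were searched on both strands. All 10 genes had a window, and 4 of them, XBP1, HSPA5, HSP90B1 and CALR, held the element exactly, of 25 genes among 27305 with a window. It was present in 0.0769% of all 35116 windows. Of the 5 measured genes, XBP1 alone held it, in 1 of its 2 windows. That window is printed whole, 5′ to 3′ on the gene's strand, with the fixed letters of the element in capitals; the match begins 52 bases before the start.

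XBP1, chr22:28800520-28800819, minus strand: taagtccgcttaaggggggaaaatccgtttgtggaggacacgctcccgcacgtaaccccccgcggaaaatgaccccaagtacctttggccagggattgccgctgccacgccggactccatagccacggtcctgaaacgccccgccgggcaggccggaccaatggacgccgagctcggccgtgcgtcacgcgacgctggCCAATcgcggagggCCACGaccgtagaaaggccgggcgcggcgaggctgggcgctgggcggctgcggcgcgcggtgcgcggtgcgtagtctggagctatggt

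The elements of the other genes are set beside it with 10 bases on either side, to show both blocks and the spacer between them. HSPA5 (BiP, the main chaperone of the compartment), HSP90B1 (GRP94, shown at the first of its 2 matches) and CALR (calreticulin) are members of the set without a value here. CANX, PDIA6 and SERP1 are measured genes of the wider pathway lists that hold the element. In CALR and SERP1 the element lies on the opposite strand, so its blocks read CGTGG and ATTGG.

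XBP1, chr22:28800593-28800631, minus strand: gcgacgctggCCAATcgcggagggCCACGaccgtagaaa
HSPA5, chr9:125241381-125241419, minus strand: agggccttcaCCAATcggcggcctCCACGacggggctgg
HSP90B1, chr12:103930206-103930244, plus strand: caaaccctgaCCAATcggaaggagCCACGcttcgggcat
CALR, chr19:12938374-12938412, plus strand: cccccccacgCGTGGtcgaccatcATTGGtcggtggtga
CANX, chr5:179698768-179698806, plus strand: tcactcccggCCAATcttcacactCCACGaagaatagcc
PDIA6, chr2:10812843-10812881, minus strand: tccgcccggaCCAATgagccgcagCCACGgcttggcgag
SERP1, chr3:150546700-150546738, minus strand: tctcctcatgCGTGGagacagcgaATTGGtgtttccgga

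HERPUD1, an unmeasured member whose product acts in degradation, instead held ERSE-II, which reads ATTGG, 1 base of any kind, then CCACG, and which was found in 0.0541% of windows.

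HERPUD1, chr16:56932015-56932045, plus strand: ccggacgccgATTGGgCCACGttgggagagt

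The measured members DNAJB9, PDIA4 and SEL1L held only the short CCACG block, which overlaps both elements and was present in 38.1% of windows, and ERN1 held none of the sequences searched. DNAJB9 has 2 such blocks, the first beginning 74 bases before the start. Its window is printed because DNAJB9 had the widest spread within groups of the 5 measured genes, as described below, with CCACG and its reverse complement CGTGG in capitals.

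DNAJB9, chr7:108569624-108569923, plus strand: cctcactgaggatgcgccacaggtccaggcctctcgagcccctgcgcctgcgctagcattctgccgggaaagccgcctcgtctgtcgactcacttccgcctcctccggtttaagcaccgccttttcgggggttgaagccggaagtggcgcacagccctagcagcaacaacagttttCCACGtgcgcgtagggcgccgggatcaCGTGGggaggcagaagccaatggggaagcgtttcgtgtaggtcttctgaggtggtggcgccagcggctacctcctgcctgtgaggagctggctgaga

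The UPRE, TGACG followed directly by TGG, was in none of the 10 genes' windows and in 0.729% of all windows, and its core TGACGT was in 7.98% of windows and in that of HSPA5. These matches describe letters in a fixed window and do not show binding in LAN-5 cells.

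None of the 5 measured genes passed the test in any of the 3 comparisons. The first comparison asked whether the micromolar dose changed them. In 5 µM cells against untreated cells 0 of 5 passed (limma, adjusted p from 0.700 to 0.996), while 0.292% of all tested probe sets did. Their log2 fold changes ran from -0.12 for ERN1 to 0.15 for XBP1, with a median of 0.06 against -0.02 over all tested probe sets. HMGCS1, the sterol synthesis gene with a large fall at this dose, gives the scale: 7.76, 7.80 and 7.73 log2 in 5 µM cells, against 8.82, 8.74 and 9.17 in untreated cells, a log2 fold change of -1.14 ± 0.12 (SE, 3 arrays a group) with an adjusted p of 0.00217 from limma.

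XBP1, the transcription factor made active by splicing, came nearest to a difference among the members. The array has 1 probe set for it and does not separate spliced from unspliced mRNA. Its values were 8.21, 8.08 and 8.12 log2 in untreated cells, 8.26, 8.10 and 8.11 in cells with 0.5 nM S100B, and 8.23, 8.34 and 8.30 in cells with 5 µM S100B. The 3 arrays at 5 µM lay above the 3 untreated arrays without overlap, by a margin of 8.23 over 8.21, while replicate 1 at 0.5 nM, at 8.26, lay among the 5 µM arrays. The log2 fold change at 5 µM against untreated was 0.15 ± 0.06 (SE, n = 3 per group), or 111.2% of the untreated level with a 95% interval of 100.9% to 122.6%. The unadjusted p was 0.0345 and limma's adjusted p was 0.700, so it did not pass. XBP1 was the 1 member of 5 whose groups did not overlap in this comparison, against 12.3% of all probe sets, and the 1 of 5 with an unadjusted p under 0.05, against 6.84%. The ACTB control's 3' minus 5' signal, a measure of RNA integrity, was -0.11, -0.06 and 0.14 log2 at 5 µM, against -0.16, 0.04 and 0.11 in untreated cells. That of the GAPDH control was 0.24, 0.27 and 0.40 at 5 µM, against 0.26, 0.23 and 0.30 in untreated cells. The ranges overlapped for both controls, and the highest value of each at 5 µM was on replicate 3. The part of RNA integrity in the XBP1 values was not tested. Of the markers of plasma and B cells, of which plasma cells are known for high XBP1, 5 were tested, with a median of -0.04 log2 in this comparison, 2 positive and 3 negative. Of the noradrenergic markers 11 of 13 were positive there, against 38.1% of all probe sets, with a median of 0.09 log2. Of the 13, 2 had an unadjusted p under 0.05 and 2 did not overlap. At 0.5 nM against untreated, where XBP1 was at 0.02, 11 of 13 were positive too, against 40.9% of all probe sets. Their median there was 0.07 log2, and 2 did not overlap, against 6.98%. The mean level of these markers on an array, as log2 units from each gene's mean, ran from -0.03 to 0.10 at 5 µM. At 0.5 nM it ran from -0.01 to 0.04. In untreated cells it was 0.02, -0.18 and 0.03 on replicates 1, 2 and 3. Only replicate 2 of these lay below the treated arrays, and both comparisons with untreated cells share it. It was lowest on untreated replicate 2, where XBP1 was also lowest, and 0.0036 on 5 µM replicate 2, where XBP1 was highest. The part of these markers in the XBP1 values was not tested.

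**Figure D1:**
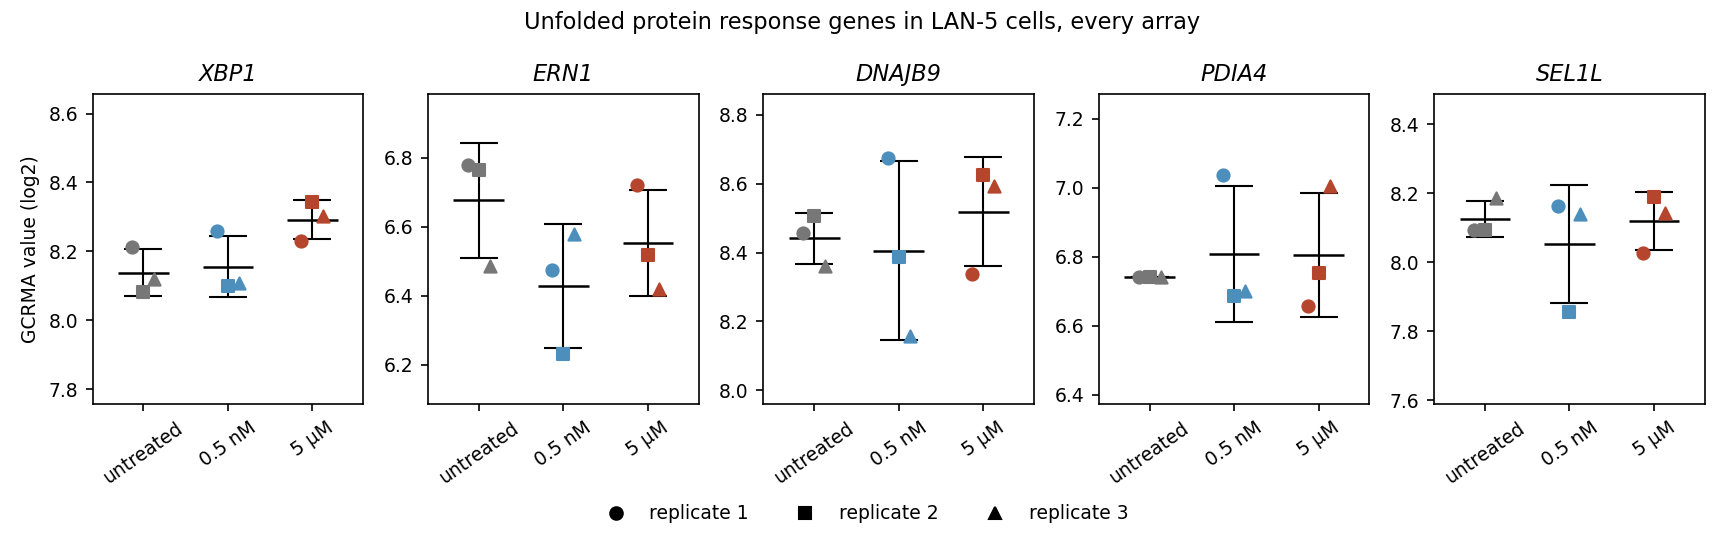
Log2 GCRMA value (y axis, each panel spanning the same range of log2 units) of XBP1, ERN1, DNAJB9, PDIA4 and SEL1L in untreated LAN-5 cells and cells with 0.5 nM or 5 µM S100B; points are arrays, with marker shape giving the replicate number, and bars are the mean ± SD of 3 arrays. XBP1 at 5 µM sits above untreated with no overlap, the other 4 genes overlap in every pair of groups, and the 3 untreated arrays of PDIA4 have 1 identical value.

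ERN1, which encodes the IRE1 sensor and nuclease, had its lowest mean at 0.5 nM. Its values were 6.78, 6.77 and 6.49 log2 in untreated cells, 6.48, 6.23 and 6.58 at 0.5 nM, and 6.72, 6.52 and 6.42 at 5 µM. All 3 groups overlapped, and untreated replicate 3 lay with the treated arrays. At 0.5 nM against untreated the log2 fold change was -0.25 ± 0.11 (SE, n = 3 per group), 84.2% of untreated with a 95% interval of -0.50 to -0.00021 log2, and did not pass (unadjusted p = 0.0498, limma's adjusted p = 0.9999). Without 0.5 nM replicate 2 it was -0.15. It was -0.12 ± 0.11 at 5 µM against untreated and 0.12 ± 0.11 at 5 µM against 0.5 nM, and neither passed. With 1 array left out in turn, these values ran from -0.22 (without untreated replicate 3) to -0.06 (without 5 µM replicate 3) and from 0.03 (without 0.5 nM replicate 2) to 0.20 (without 0.5 nM replicate 3). ERN1 lay closest to the filter of the 5, with a mean of 6.55 log2 over all arrays against a filter at 5.95, and it was removed by a stricter filter that left out the dimmer 50% of probe sets.

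Downstream of these regulators, DNAJB9 encodes ERdj4, a co-chaperone of BiP and a classic target of XBP1. It had 8.46, 8.51 and 8.36 log2 in untreated cells, 8.67, 8.39 and 8.16 at 0.5 nM, and 8.34, 8.62 and 8.59 at 5 µM. The 0.5 nM arrays held both the highest and the lowest value of the 9, and every pair of groups overlapped. The log2 fold change was 0.08 ± 0.12 at 5 µM and -0.04 ± 0.12 at 0.5 nM, each against untreated, with 95% intervals of -0.19 to 0.34 and -0.30 to 0.23. The value at 5 µM was 0.17 without 5 µM replicate 1 and 0.02 without 5 µM replicate 2. The value at 0.5 nM was -0.17 without 0.5 nM replicate 1 and 0.09 without 0.5 nM replicate 3.

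PDIA4 encodes ERp72, a disulfide isomerase of the endoplasmic reticulum. It was at 6.74 log2 on each of the 3 untreated arrays, at 7.04, 6.69 and 6.70 at 0.5 nM, and at 6.66, 6.75 and 7.01 at 5 µM. At each dose 1 array stood above the others, replicate 1 at 0.5 nM and replicate 3 at 5 µM. The 3 untreated values were identical to the last digit deposited, which held for 74 of 8746 probe sets (0.846%), and 57.9% of probe sets had at least 1 value repeated among their 9. The spread of PDIA4 in untreated cells is therefore recorded as 0. Its standard errors come from its spread in all 3 groups, drawn by limma toward that of all tested probe sets. Its log2 fold change was 0.06 ± 0.11 at 5 µM and 0.07 ± 0.11 at 0.5 nM against untreated. The fold change at 5 µM was -0.04 without 5 µM replicate 3, and that at 0.5 nM was -0.05 without 0.5 nM replicate 1.

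SEL1L, the adaptor of the HRD1 ubiquitin ligase complex that removes misfolded proteins, had 8.09, 8.09 and 8.19 log2 in untreated cells, 8.16, 7.85 and 8.14 at 0.5 nM, and 8.03, 8.19 and 8.14 at 5 µM. Replicate 2 at 0.5 nM was the lowest array, and the other 8 lay between 8.03 and 8.19. The log2 fold change was -0.0061 ± 0.08 at 5 µM and -0.07 ± 0.08 at 0.5 nM against untreated (SE, n = 3 per group). Without replicate 2 at 0.5 nM, the value at 0.5 nM was 0.03.

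The second comparison asked whether the nanomolar dose changed these genes. In 0.5 nM cells against untreated cells 0 of 5 passed by limma (adjusted p = 0.9999 for each), against 0% of the 5830 probe sets. An unadjusted p under 0.05 was found for 1 of 5, ERN1, against 3.29% of all probe sets, and the groups did not overlap for 0 of 5, against 6.98%. The median fold change of the 5 genes was -0.04 log2, against -0.02 over all probe sets. The third comparison set the doses against each other. In 5 µM cells against 0.5 nM cells 0 of 5 passed, against 0.257% of probe sets, 0 of 5 had an unadjusted p under 0.05, against 4.65%, and 0 of 5 did not overlap, against 6.98%. The median of the 5 genes was 0.11 log2, against -0.0089 over all probe sets, with 4 of 5 positive and XBP1 the highest at 0.14 ± 0.06 (SE, n = 3 per group). The comparisons share arrays, so these values are not independent of each other. A test for any difference among the 3 groups passed for 0 of 5 (limma's moderated F, adjusted p from 0.984 to 0.990), against 0.24% of probe sets.

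**Figure D2:**
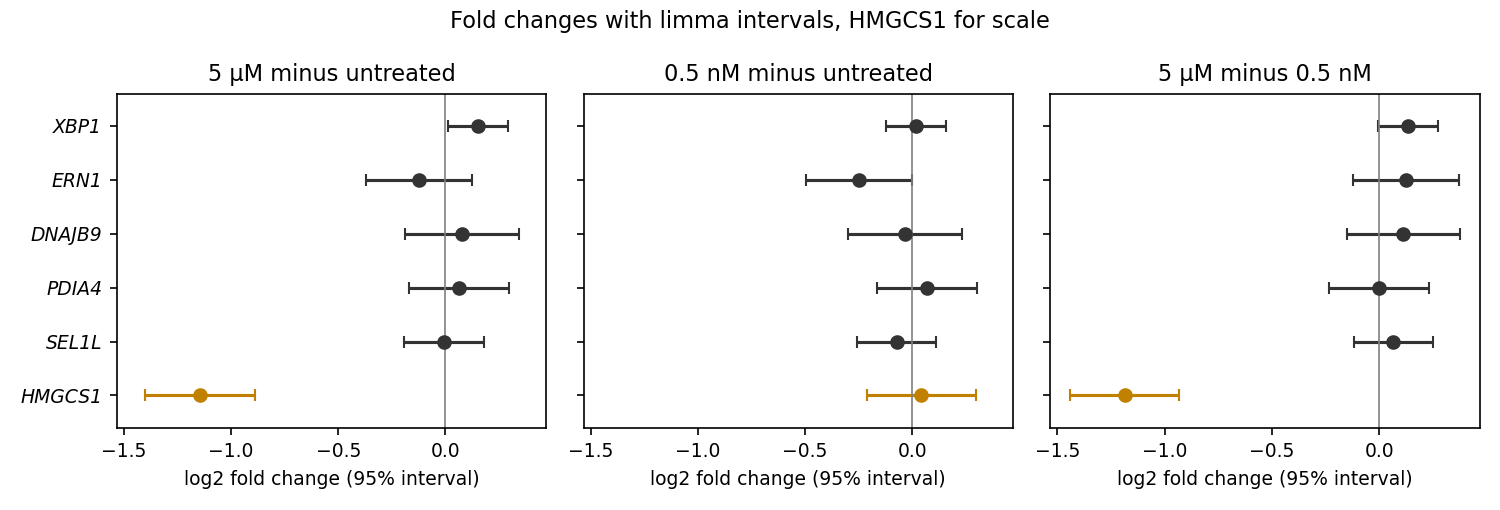
Log2 fold changes (x axis) with 95% intervals from the limma fit for the 5 unfolded protein response genes and, for scale, HMGCS1, in the 3 comparisons. The gene intervals lie between -0.50 and 0.38 log2, and HMGCS1 is at -1.14 and -1.19 in the comparisons that include 5 µM.

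The intervals give the range of fold changes that the spread between arrays allows for the 5 measured genes. The other 5 members have no interval. At 5 µM against untreated the lowest limit among the 5 genes was 77.3% of the untreated level, for ERN1, and the highest was 126.8%, for DNAJB9. At 0.5 nM the limits ran from 70.9% to 123.1%, and between the doses from 84.9% to 129.9%. These are intervals of single probe sets, unadjusted for their number. A change in XBP1 splicing or in the activity of the sensors was not measured by these arrays.

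The 5 genes differed in how much they varied between arrays of the same group. The residual SD of the fit was 0.0721 log2 for XBP1, less than for most probe sets, since 33.2% of probe sets varied less. It was 0.114 for SEL1L, 0.155 for PDIA4, 0.166 for ERN1 and 0.180 for DNAJB9, and 72.5%, 89.4%, 91.9% and 93.7% of probe sets varied less than these. The median over all tested probe sets was 0.0877. The interval of XBP1 was accordingly the narrowest of the 5.

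Among the treated arrays, XBP1, DNAJB9 and PDIA4 shared some of their highs and lows. After subtraction of the group means, the Pearson correlation over 9 arrays was 0.76 between PDIA4 and DNAJB9, 0.73 between XBP1 and DNAJB9, and 0.66 between XBP1 and PDIA4. Replicate 1 at 0.5 nM was the highest array of its group in all 3 genes, and replicate 1 at 5 µM was the lowest of its group in all 3. In untreated cells they did not go together: XBP1 was lowest on replicate 2, where DNAJB9 was highest, and PDIA4 had 1 value throughout. SEL1L correlated at 0.52 with XBP1 and with PDIA4 and at 0.25 with DNAJB9, and ERN1 at -0.23 to 0.17 with the other 4. Values of 1 array share an RNA sample, a hybridisation and a normalization, and many other genes followed the same arrays. Without that subtraction DNAJB9 and PDIA4 correlated at 0.71, and 3.47% of all probe sets were at least as like PDIA4 and 6.38% at least as like DNAJB9. XBP1 and DNAJB9 correlated at 0.66, and 2.88% of probe sets were at least as like XBP1 and 9.23% at least as like DNAJB9. For XBP1 and PDIA4, at 0.51, these shares were 8.96% for XBP1 and 14.3% for PDIA4.

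**Figure D3:**
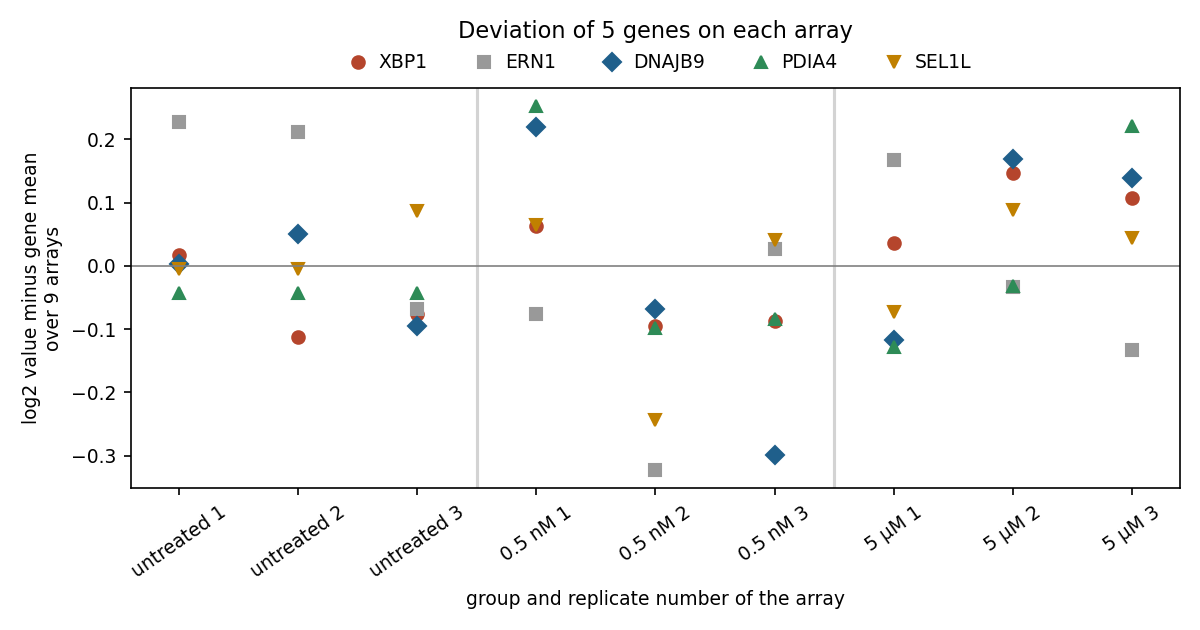
Log2 value minus the gene's mean over the 9 arrays (y axis) for XBP1, ERN1, DNAJB9, PDIA4 and SEL1L on each array (x axis, by group and replicate number). DNAJB9, PDIA4 and XBP1 are all high on 0.5 nM replicate 1 and on 5 µM replicate 3, and ERN1 is below its mean on those arrays. ERN1 is lowest on 0.5 nM replicate 2, where DNAJB9, PDIA4 and XBP1 are below their means too.

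Genes outside the set were closer still in pattern. Over the 9 arrays, DNAJB9 was most like PSPH (Pearson r = 0.98), which makes serine, then UBQLN2 (0.97), which delivers ubiquitinated proteins to the proteasome, and PRCP (0.96). PDIA4 was most like ZNF146 (0.97), VPS4B (0.95) and STAM (0.94), the last pair acting in endosomal sorting. XBP1 was most like SCG5 (0.92), a chaperone of a prohormone convertase in secretory granules, SYT1 (0.92), the calcium sensor of synaptic vesicles, and MAP4K5 (0.88). SEL1L was most like ABCB4 (0.95), CDK14 (0.91) and SHOC2 (0.90), and ERN1 like GP2 (0.91), NCK1 (0.90) and GMFG (0.90). These are the extremes of 9-point correlations over the whole array. The rank correlations (Spearman) of the same pairs ran from 0.71, for SEL1L with ABCB4, to 0.97, for DNAJB9 with UBQLN2. For SEL1L with CDK14 and SHOC2 they were 0.84 and 0.74, and for ERN1 with GP2, NCK1 and GMFG 0.90, 0.73 and 0.88. Among the pathway lists described next, the gene most like PDIA4 was YY1 (0.93), a transcription factor, and that most like DNAJB9 outside the members was SSR1 (0.91), a subunit of the translocon-associated protein complex. XBP1 was most like HSPA13 (0.78), an HSP70 of the microsomes, ERN1 like ERO1A (0.71), an oxidase of disulfide isomerases, and SEL1L like NFYB (0.68).

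The rest of the pathway was read from 6 lists of textbook genes that include the 10 members. Of 128 genes, 83 had a probe set with 1 symbol and 77 were tested. None of the 77 passed in any comparison (limma, smallest adjusted p = 0.0888 at 5 µM against untreated). At 5 µM against untreated 8 of the 77 had groups that did not overlap, 2 higher and 6 lower, against 12.3% of all probe sets, and 3 had an unadjusted p under 0.05, against 6.84%. At 0.5 nM against untreated 3 did not overlap, against 6.98% of all probe sets, and 2 had such a p, against 3.29%. Between the doses 7 did not overlap, against 6.98%, and 3 had such a p, against 4.65%. The median over the 77 was -0.01, -0.0019 and -0.0086 log2 in these 3 comparisons. At 5 µM against untreated, negative fold changes were found in 9 of 12 sensors and regulators, 9 of 12 chaperones, 5 of 10 foldases, 7 of 8 degradation genes, 15 of 27 translocation and transport genes and 1 of 8 genes of the PERK arm, against 61.9% of all probe sets. These signs count values that did not pass the test.

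**Figure D4:**
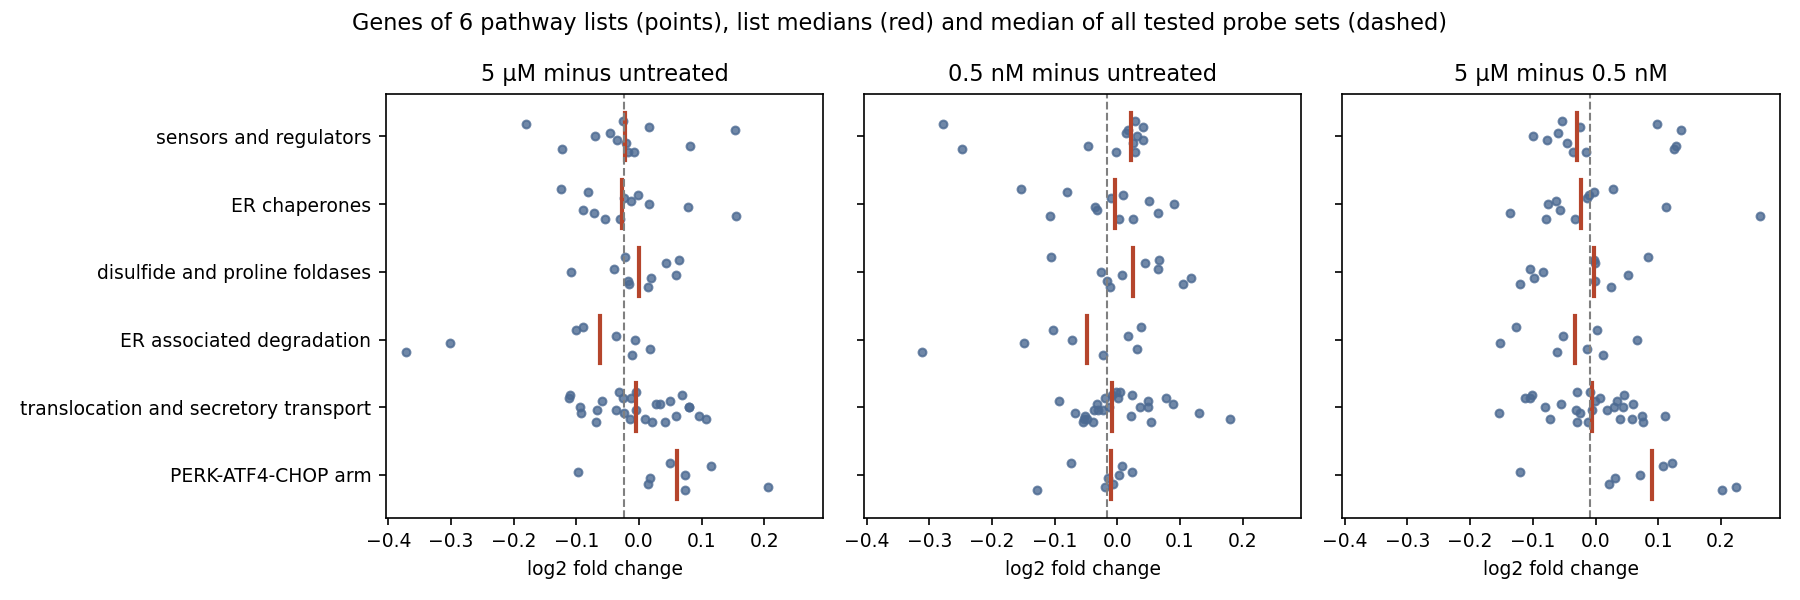
Log2 fold changes (x axis) of the tested genes of 6 pathway lists (rows) in the 3 comparisons, with the list median in red and the median of all 5830 probe sets dashed. Most genes lie within 0.2 log2 of 0; the degradation list has 2 genes below -0.30 at 5 µM against untreated.

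Of the sensors and regulators 12 of 18 were tested. ATF6, shown for its role, was at 8.01 log2 in 5 µM cells and 8.03 in untreated cells, a log2 fold change of -0.02 ± 0.06 that did not pass. EIF2AK3, which encodes PERK, lay below the filter. After XBP1, the smallest p at 5 µM against untreated was that of MBTPS1, the site-1 protease that cuts ATF6 and the sterol factors SREBP, at -0.07 ± 0.06 (limma's adjusted p = 0.846), with groups that did not overlap. After ERN1 at 0.5 nM against untreated came NFYA, a subunit of the CCAAT-binding factor NF-Y, at -0.28 ± 0.21 (adjusted p = 0.9999), and at -0.08 without untreated replicate 1. Between the doses NFYB, another NF-Y subunit, was at 0.13 ± 0.07 (adjusted p = 0.994).

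Among chaperones 12 of 18 genes were tested, with a median of -0.03 log2 at 5 µM against untreated. SERPINH1, the collagen chaperone, was at -0.09 ± 0.06 and HSPA13 at 0.15 ± 0.12 there (limma's adjusted p of 0.827 and 0.843), and HSPA13 was at 0.05 without untreated replicate 3. HSPA13 had 8.02, 8.24 and 8.28 log2 at 5 µM, against 8.17, 7.84 and 7.74 at 0.5 nM, a log2 fold change of 0.26 ± 0.12 that did not pass (adjusted p = 0.994). MANF, a secreted endoplasmic reticulum stress protein, was at -0.14 ± 0.07 between the doses. In 0.5 nM cells against untreated cells SERP1, which stabilises membrane proteins under stress, was at -0.15 ± 0.12, and HYOU1, a large chaperone of the compartment, at 0.09 ± 0.10.

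Of the foldases 10 of 18 were tested, and their median was -0.00082 log2 at 5 µM against untreated. PDIA3 (ERp57) had 10.59, 10.58 and 10.52 log2 at 5 µM, against 10.73, 10.62 and 10.68 in untreated cells. These did not overlap, and the log2 fold change of -0.11 ± 0.12 did not pass (limma's adjusted p = 0.911). ERP29 was at 0.06 ± 0.07 in that comparison. Against untreated, at 0.5 nM, the thiol oxidase QSOX1 was at 0.12 ± 0.08 and P4HB, the archetypal disulfide isomerase, at 0.11 ± 0.09. Between the doses P4HB was at -0.12 ± 0.09 and the prolyl isomerase PPIB at -0.10 ± 0.07.

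The degradation list, with 8 of 25 genes tested, held the gene nearest to the threshold. MAN1B1 encodes the mannosidase that trims glycans of misfolded glycoproteins and so marks them for removal. It had 6.40, 6.41 and 6.34 log2 in untreated cells, 6.26, 6.31 and 6.14 at 0.5 nM, and 6.08, 6.06 and 6.11 at 5 µM. No 2 of the 3 groups overlapped, with untreated highest and 5 µM lowest. The log2 fold change was -0.30 ± 0.06 at 5 µM against untreated, 81.2% of that level, with a 95% interval of -0.43 to -0.17 and limma's adjusted p = 0.0888, so it did not pass. It did pass when the prior variance followed intensity (adjusted p = 0.0437) and with array weights (adjusted p = 0.0227), and in 0 of 9 fits that left out 1 array (adjusted p from 0.0554 to 0.431). At 0.5 nM against untreated it was at -0.15 ± 0.06 and between the doses also at -0.15 ± 0.06, and neither passed. Its signal lies near the filter at 5.95 log2.

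RAD23B, which shuttles ubiquitinated proteins to the proteasome, had 9.91, 9.93 and 9.53 log2 at 5 µM, against 10.12, 10.26 and 10.12 in untreated cells. The groups did not overlap, but replicate 3 stood well below the other 5 µM arrays, and the log2 fold change of -0.37 ± 0.18 did not pass (limma's adjusted p = 0.740). At 0.5 nM it was at -0.31 ± 0.18 against untreated, with groups that overlapped and replicate 3 at 9.38 the lowest array. Without replicate 3 of the treated group, RAD23B was at -0.24 at 5 µM and at -0.08 at 0.5 nM. The ubiquitin-conjugating enzyme UBE2G2 was at -0.13 ± 0.08 between the doses. The median of the list was -0.06 log2 at 5 µM and -0.05 at 0.5 nM against untreated.

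**Figure D5:**
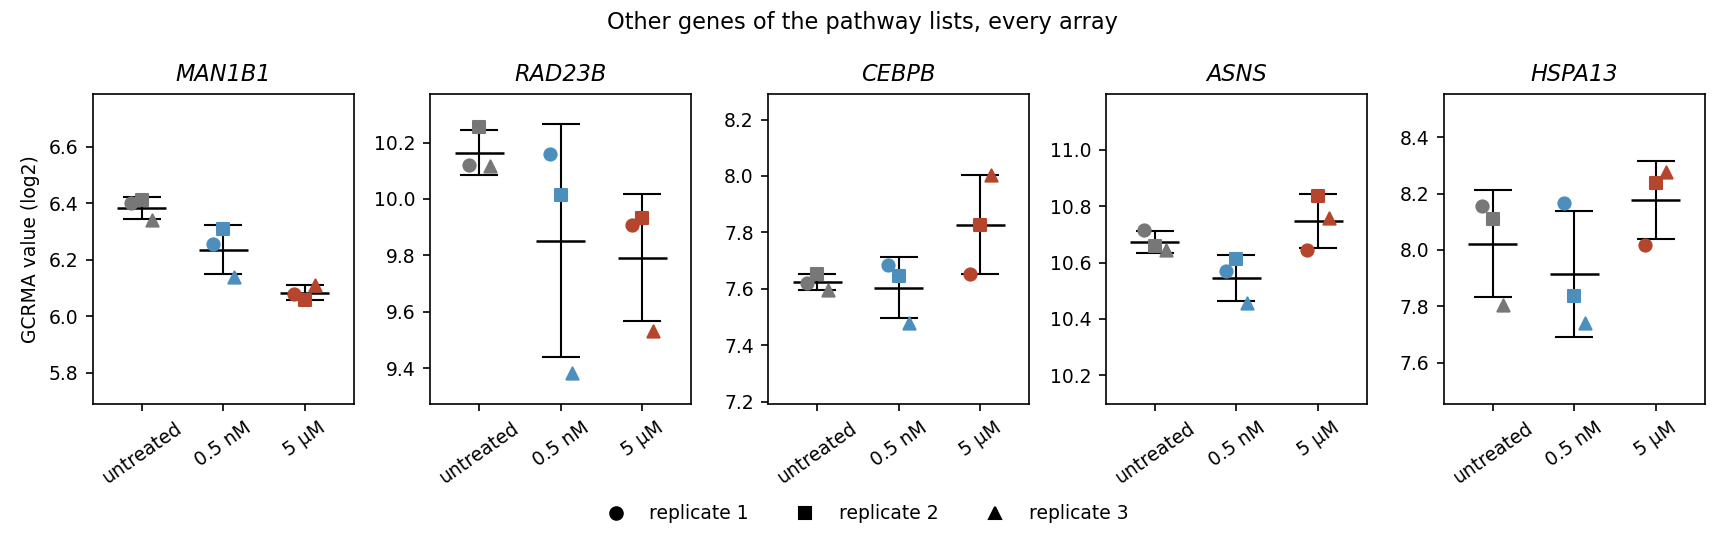
Log2 GCRMA value (y axis, each panel spanning the same range of log2 units) of MAN1B1, RAD23B, CEBPB, ASNS and HSPA13 by group; points are arrays, with marker shape giving the replicate number, and bars are the mean ± SD of 3 arrays. MAN1B1 is at 6.34 to 6.41 in untreated cells, 6.14 to 6.31 at 0.5 nM and 6.06 to 6.11 at 5 µM.

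Of the genes for translocation into the compartment and transport out of it 27 of 35 were tested, with medians within 0.01 log2 of 0 in all 3 comparisons. RPN2, a subunit of the oligosaccharyltransferase, was at -0.11 ± 0.06 at 5 µM against untreated, and SRPRA, a receptor subunit for the signal recognition particle, at -0.09 ± 0.05. SEC63 was at 0.18 ± 0.09 and the coat protein SEC24C at 0.13 ± 0.09 at 0.5 nM against untreated. Between the doses the signal peptidase SEC11A was at 0.11 ± 0.06 and SEC24C at -0.15 ± 0.09. None of these passed.

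In the arm of PERK, ATF4 and CHOP, 8 of 15 genes were tested. At 5 µM 7 of the 8 were positive against untreated (median 0.06 log2) and 7 of the 8 against 0.5 nM (median 0.09), where 38.1% and 45.0% of all probe sets were positive. CEBPB, a transcription factor of this arm, had 7.65, 7.83 and 8.005 log2 at 5 µM, against 7.62, 7.65 and 7.60 in untreated cells. Its lowest 5 µM array and highest untreated array had the same value, and the log2 fold change of 0.20 ± 0.09 did not pass (limma's adjusted p = 0.707) and was 0.12 without 5 µM replicate 3. ASNS, the asparagine synthetase that ATF4 induces, had 10.65, 10.84 and 10.76 log2 at 5 µM, against 10.57, 10.61 and 10.46 at 0.5 nM. These did not overlap, and the log2 fold change of 0.20 ± 0.06 did not pass (adjusted p = 0.871). At 0.5 nM against untreated ASNS was at -0.13 ± 0.06 and EIF2S1, the translation factor that PERK phosphorylates, at -0.07 ± 0.06. TRIB3, a pseudokinase target of ATF4, was the 1 negative gene at 5 µM against untreated, at -0.10 ± 0.07. Its groups did not overlap there or between the doses, where it was at -0.12 ± 0.07. Groups did not overlap for 1 of the 8 genes at 5 µM against untreated and for 2 between the doses, against 12.3% and 6.98% of all probe sets. DDIT3, which encodes CHOP, had no probe set with 1 symbol.

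The genes whose promoter window holds the ERSE shown above had fold changes of both signs. Of the 77 tested pathway genes 71 had a window, and 4 held it: XBP1 at 0.15, PDIA6 at -0.02, CANX at -0.03 and SERP1 at -0.12 log2 at 5 µM against untreated. XBP1, PDIA6 and CANX each also have a window without it. PDIA6 is a disulfide isomerase and CANX is calnexin, the membrane lectin chaperone. At 0.5 nM against untreated they were at 0.02, -0.02, 0.0023 and -0.15, and at 5 µM against 0.5 nM at 0.14, -0.0011, -0.03 and 0.03 log2. None of the 4 passed in any comparison. ERSE-II was held by 2 of the tested pathway genes, HYOU1 and SDF2L1. They were at 0.02 and -0.01 log2 at 5 µM against untreated, and neither passed.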

How the data were processed

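The authors deposited log2 values, 1 per probe set and array, made with GCRMA per the submitters' processing notes; no version, setting or genome build is given in the sources used here. GCRMA corrects background, normalises between arrays and summarises probes. Values between 4.37 and 14.5 showed the scale to be logarithmic. Arrays were grouped by their titles. From 8793 probe sets, 47 controls and the 2916 with the lowest mean over all arrays were removed, which left 5830. Of the 8746 others, 7840 had 1 gene symbol, 388 several and 518 none; symbols were updated through RefSeq, where 7838 matched.

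One model with 3 groups and no covariate was fitted to all 9 arrays (lmFit and eBayes of limma 3.58.1, R 4.3.3), with Benjamini-Hochberg adjustment over 5830 probe sets and a threshold of 0.05. Standard errors and 95% intervals are those of the moderated fit. With 3 arrays a group, precision is limited, and the smallest p of an exact permutation test is 0.1. The fit was tested on simulated data. No protein sequences were used here.

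The members and lists were chosen with earlier results of these data known. All members were named, and of each list the genes past the threshold or the 2 with the smallest p in each comparison; the genes most like a member are the 3 with the highest Pearson correlation over the arrays, and HMGCS1 was named for scale; ATF6, EIF2AK3 and the motif-bearing genes were named for their role or sequence, and other named genes, among them SSR1, YY1 and ERO1A, after their values were seen. Signal over background is unknown, since no scanner output was used here. Alternatives covered scaling, the filter, the variance model, the samples in the fit, the replicate number as a block and leaving out each array.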

Additional observations from a re-analysis of the deposited data

How the results depend on the processing

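The count of members past the threshold stayed at 0 in every comparison under all alternatives run, and in the F test under all but the unmoderated test and the fits of only the groups compared, where it was not run: quantile normalization, median centring, no filter, the dimmer 50% left out, a fit of only the groups compared, the replicate block, an intensity trend, array weights, an unmoderated test and each of 9 arrays left out. With the replicate number as a block, 15, 0 and 15 probe sets passed at 5 µM against untreated, at 0.5 nM against untreated and between the doses, against 17, 0 and 15 without it. Each number occurs once in each group, so the block cannot change a fold change. The median of the members therefore stayed at 0.06, -0.04 and 0.11 log2. Deviations of same-numbered arrays from their group means correlated at -0.00035 to 0.33. Replicate 3 arrays deviated together in all 3 pairs of groups (0.30, 0.30 and 0.33), and correlated at -0.37 to -0.06 with arrays of other numbers. The deviations of a group sum to 0, so the negative values follow on balance from the positive ones and add no evidence. Replicates 1 and 2 did not deviate together in every pair, so the number was not taken to pair arrays in the main fit. With the block, the SE of RAD23B at 5 µM against untreated was 0.11, against 0.18 without it, and RAD23B did not pass. The cause of the shared deviation was not tested. Over all probe sets 7 passed at 5 µM against untreated and 4 between the doses when only the groups compared were fitted, and 1 and 1 with the unmoderated test. Leaving out 1 array gave 4 to 17 probe sets, 0 and 3 to 14 in the 3 comparisons, and medians of the members of -0.0184 to 0.138, -0.128 to 0.0411 and 0.0252 to 0.148 log2. The low end at 0.5 nM came without 0.5 nM replicate 1.

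Many refits could not change a fold change. The filter, the block, the intensity trend and the unmoderated test leave every fold change as it was. So does leaving out arrays of the group not compared. Counting these too, the fold changes of members kept their sign in 250 of 267 refits and turned in 17, given here. SEL1L at 5 µM against untreated was 0.0181 with quantile normalization, 0.0170 with median centring and 0.0151 with array weights, and -0.0405 to 0.0406 when 1 array was left out. PDIA4 between the doses was 0.0241 with array weights. Leaving out 1 array gave PDIA4 -0.103 to 0.111 between the doses, -0.0363 to 0.138 at 5 µM and -0.0474 to 0.127 at 0.5 nM against untreated. It gave XBP1 -0.0338 to 0.0547 at 0.5 nM, DNAJB9 -0.170 to 0.0891 at 0.5 nM and -0.0116 to 0.247 between the doses, and SEL1L -0.128 to 0.0263 and -0.0324 to 0.122 in those comparisons. HMGCS1 at 0.5 nM was -0.00503 with array weights and -0.0652 to 0.171 without 1 array; at 5 µM it missed the threshold with the unmoderated test. XBP1 at 5 µM against untreated ran from 0.13 to 0.19 over 18 alternatives (adjusted p from 0.247 to 0.993). Its fold change could move only with scaling, array weights or the loss of an array of either group compared, and stayed positive there. Leaving out 1 array also moved, among genes that did not pass, QSOX1 (0.0277 to 0.164), P4HB (0.0333 to 0.174) and SERP1 (-0.263 to -0.0628) at 0.5 nM and ERP29 (0.0167 to 0.0898) at 5 µM, each against untreated. The cause of these shifts was not tested.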
